A study of Mus musculus with 6 samples.

Results

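The Notch pathway genes described here are 10 genes of the 24214 RefSeq features in the expression tables of 393P, an epithelial murine lung adenocarcinoma (LUAD) cell line. They were chosen by symbol as 4 receptors (Notch1, Notch2, Notch3 and Notch4), 3 ligands (Jag1, Jag2 and Dll1), 2 transcriptional targets (Hes1 and Hey1) and 1 inhibitor (Numb), and all 10 passed the filter on low counts. The comparison is between 393P cells with ectopic ZEB1 expression (393P_ZEB1, 3 samples) and 393P cells with the empty vector (393P_vector, 3 samples). ZEB1 is a transcriptional repressor that drives epithelial-to-mesenchymal transition (EMT). The labels describe all 6 samples as transfectants of KP lung cancer cells of C57BL/6 background, grown in RPMI-1640 with fetal calf serum. All therefore come from a single parental line, and nothing in the labels says whether samples of a condition were separate transfections or repeat cultures, so the p-values measure the spread between these samples, which may be technical.

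Notch receptors are single-pass membrane proteins that are activated by contact with a ligand on a neighboring cell. Ligand binding exposes the receptor to ADAM proteases and then to the gamma-secretase complex, which frees the intracellular domain. That domain enters the nucleus, binds RBPJ together with a Mastermind-like coactivator, and induces genes of the HES and HEY families, which are themselves repressors. In the lung, Notch signaling is known for directing airway progenitors towards secretory and away from ciliated and neuroendocrine fates.

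Zeb1 itself, the expressed gene, was at 21.2, 22 and 21.4 CPM (read counts relative to library sizes after TMM scaling) in 393P_vector replicates 1 to 3 and at 54.9, 48.9 and 51.3 CPM in 393P_ZEB1 replicates 1 to 3. Its log2 fold change was 1.26. The 396 tested genes of chromosome 18, on which Zeb1 lies, had a median change of 0.64, and relative to that median Zeb1 changed by 0.63. The epithelial markers Epcam, Cdh1, Krt8 and Krt18 were all expressed in 393P_vector cells, and so were the mesenchymal markers Vim, Fn1, Cdh2 and Zeb2. Of 4 lung markers only Foxa2 was above 1 CPM. The summed level of 6 epithelial markers was 4629 to 5286 CPM in 393P_vector samples and 2746 to 3042 CPM in 393P_ZEB1 samples. Of the 6, 5 were called lower, against 19.3% of all genes tested. Krt18, Krt19 and Krt8 dominated the sum, with 393P_vector means of 2264, 1272 and 894 CPM. The log2 fold changes were -8.40 for Cldn4, -6.53 for Epcam, -4.09 for Cdh1, -0.77 for Krt18 and -0.61 for Krt8. Krt19 (-0.39) was not called. The summed level of the 4 mesenchymal markers was 7593 to 8372 CPM in 393P_vector samples and 10571 to 11858 CPM in 393P_ZEB1 samples. All 4 were called higher, against 18.3% of all genes tested. Total counts ran from 54442450 to 79158012 per sample. A level of 3 counts equals between 0.0361 and 0.0561 CPM at this depth. 393P_vector replicate 3 stood apart: between it and the other 393P_vector replicates, 8.98% and 9.93% of tested genes differed at least 2-fold, against 2.77% to 3.83% for the other replicate pairs. Results that rest on that replicate are given with and without it.

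Among the 10 genes, changes went in both directions. Notch1, Notch3 and Notch4 fell in 393P_ZEB1 cells, Notch2 was not called, Jag1 and Jag2 rose, and Dll1 fell. The targets Hes1 and Hey1 and the inhibitor Numb were not called. Calls were made by edgeR's quasi-likelihood test with a Benjamini-Hochberg adjusted p below 0.05 over all 13892 genes tested. Of the 10 genes, 2 were called higher and 4 lower. Among all genes tested, 37.6% were called, 18.3% as higher and 19.3% as lower. The median size of the change, regardless of sign, was 1.15 on the log2 scale for the 10 genes and 0.39 for all genes tested. The 3 samples of a condition lay entirely above those of the other for 8 of the 10 genes, against 52.8% of all genes tested. As the genes were chosen with earlier results of these data known, these comparisons only describe the list. With 3 samples against 3 an exact permutation test cannot give a p below 0.1.

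**Figure D1:**
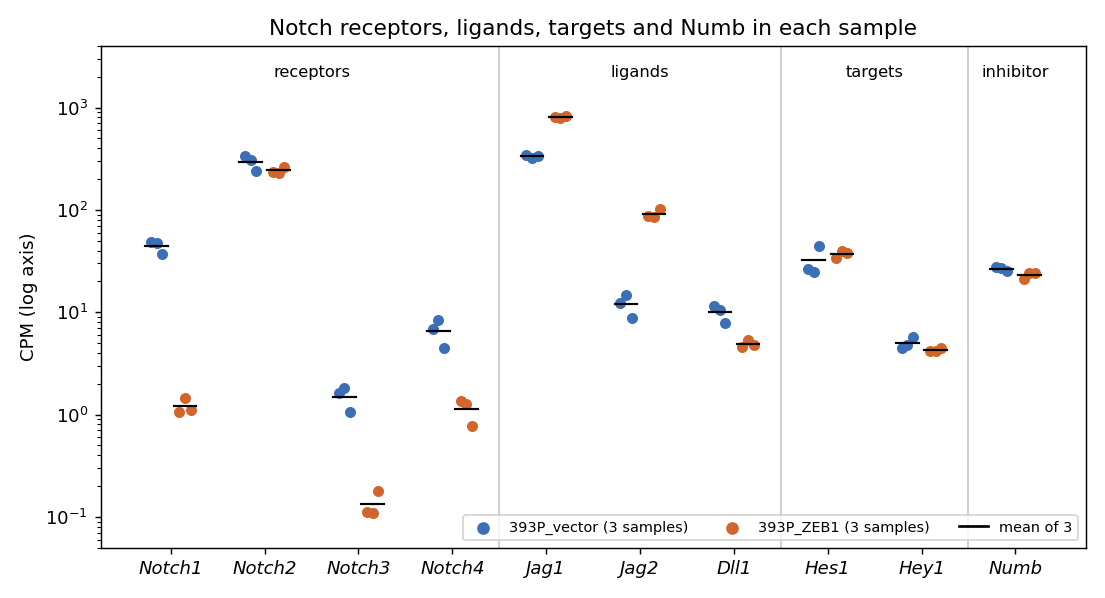
Level of each Notch pathway gene in each of the 6 samples, in CPM on a log axis, with 393P_vector samples in blue, 393P_ZEB1 samples in orange and a black bar at the mean of 3. Notch1 went from a mean of 44.4 to 1.21 CPM and Jag2 from 12 to 91.0 CPM, while the samples of Notch2 and of Hes1 overlapped.

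Because ZEB1 is known to silence the miR-200 microRNAs, the sequences of this family and its seed matches in the Notch genes are shown first. The 5 mature members are printed 5′ to 3′ with the seed (bases 2 to 8) in capitals. Their hairpins lie on the minus strand of chromosomes 4 and 6 (RefSeq, GRCm38.p6), and they fall into 2 seed groups.
miR-200b-3p: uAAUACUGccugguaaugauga
miR-200c-3p: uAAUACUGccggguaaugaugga
miR-429-3p: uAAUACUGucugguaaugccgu
miR-200a-3p: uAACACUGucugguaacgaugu
miR-141-3p: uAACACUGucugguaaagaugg

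For each gene, the 3′ UTR of its transcript with the longest coding sequence (GENCODE M21, GRCm38) was scanned for complements of these seeds. A match was a 7mer-m8 site, complementary to bases 2 to 8, or an 8mer, which adds an A after it. Of the 10 genes, 4 held a match for either seed, against 28.0% of 12005 tested genes with an annotated 3′ UTR. All 4 were 7mer-m8 sites and none was an 8mer. Each is shown on the strand of the gene within 30 bases, with the site in capitals. The sites lie on chromosome 12 from 112907992 to 112907998 (minus strand) for Jag2, chromosome 2 from 26458846 to 26458852 (minus) for Notch1, chromosome 3 from 98150029 to 98150035 (plus) for Notch2, and chromosome 12 from 83794567 to 83794573 (minus) for Numb.
Jag2: cgggacggcggCAGTATTgaagcttgtgac
Notch1: tctgcaggctcCAGTGTTctgtagtagtgt
Notch2: ccaaaggtgttCAGTGTTcacgtgtgattt
Numb: agatgagcaagCAGTGTTgtcctggtttta

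The Jag2 site pairs with the seed of miR-200b, miR-200c and miR-429 and the other 3 with the seed of miR-200a and miR-141. The 4 genes did not share a direction of change: Jag2 rose, Notch1 fell, and Notch2 and Numb were not called. Jag1 had no match by this definition. The sites of Jag2 and Numb lie outside the intervals in which the authors counted reads for these genes, which begin at 112908590 and 83795439, whereas those of Notch1 and Notch2 lie inside. Mature microRNAs were not measured in these samples.

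Promoter windows from 250 bases before to 50 bases after a RefSeq start site (GRCm38.p6) were found for 8 of the 10 genes, in 11 windows. They were searched on both strands for CAGGTA or CAGGTG, the E-box letters that ZEB1 is known to bind, and for TGGGAA, the core letters of RBPJ binding. These searched letters do not overlap each other. An E-box match was found in 4 of the 11 windows, 1 each of Jag1, Notch3, Dll1 and Numb, against 24.8% of the 12490 windows of tested genes and 29.5% of all windows. TGGGAA was in 0 of the 11 windows, against 23.3% of those of tested genes. The windows of Notch1, the receptor that fell most, and of Notch3 and Jag1, which carry a match and changed in opposite directions, are shown 5′ to 3′ on the strand of the gene with the E-box letters in capitals. They span chr2:26503773-26504072, chr17:32166841-32167140 and chr2:137116471-137116770, all on the minus strand. The match begins at position -193 in Notch3 and -156 in Jag1, relative to the start site.
Notch1: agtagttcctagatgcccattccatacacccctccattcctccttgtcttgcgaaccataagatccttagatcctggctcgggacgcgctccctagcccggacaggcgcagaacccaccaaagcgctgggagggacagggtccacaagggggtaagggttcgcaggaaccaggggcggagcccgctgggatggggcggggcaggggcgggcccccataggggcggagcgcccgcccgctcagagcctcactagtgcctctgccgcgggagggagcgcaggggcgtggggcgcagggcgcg
Notch3: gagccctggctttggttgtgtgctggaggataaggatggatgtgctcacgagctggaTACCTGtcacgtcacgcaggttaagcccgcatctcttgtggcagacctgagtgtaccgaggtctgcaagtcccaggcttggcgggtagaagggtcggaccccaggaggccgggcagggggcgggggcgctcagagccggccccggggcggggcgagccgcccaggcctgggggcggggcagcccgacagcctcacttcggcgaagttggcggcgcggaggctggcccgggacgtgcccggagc
Jag1: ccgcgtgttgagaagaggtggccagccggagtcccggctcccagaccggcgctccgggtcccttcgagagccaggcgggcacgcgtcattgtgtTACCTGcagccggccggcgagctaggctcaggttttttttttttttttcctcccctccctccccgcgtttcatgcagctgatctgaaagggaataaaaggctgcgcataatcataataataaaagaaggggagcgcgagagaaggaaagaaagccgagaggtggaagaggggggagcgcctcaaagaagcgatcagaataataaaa

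No E-box match was in the Notch1 window, which says only that these letters are not in this stretch. In both Notch3 and Jag1 the letters read as the reverse complement.

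Notch1, on chromosome 2 from 26457902 to 26503822, encodes the receptor most studied in epithelia. It was at 48.6, 47.1 and 37.4 CPM in 393P_vector replicates 1 to 3 and at 1.07, 1.46 and 1.11 CPM in 393P_ZEB1 replicates 1 to 3. Every 393P_ZEB1 sample lay far below every 393P_vector sample. The 393P_ZEB1 mean, 1.21 ± 0.214 CPM (SD, n = 3), was 36.6-fold lower than the 393P_vector mean of 44.4 ± 6.08 CPM (SD, n = 3). On the log2 scale the change was -5.19 (standard error 0.20, adjusted p = 1.73e-06 from edgeR), which placed Notch1 at rank 67 of 13892 by adjusted p. The remaining signal rested on 57, 81 and 68 counts. The authors' tables also give the number of exons with more than 10 reads. This was 34 of 34 exons in each 393P_vector sample and 1 of 34 in each 393P_ZEB1 sample, without saying which exon.

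Notch3 and Notch4, both on chromosome 17, encode receptors that are best known from vascular mural cells and from endothelium, respectively. Notch3, from 32120893 to 32166852, was at 1.61, 1.80 and 1.07 CPM in 393P_vector samples and 0.112, 0.108 and 0.180 CPM in 393P_ZEB1 samples. The 393P_ZEB1 values stood on 6, 6 and 11 counts, so the size of the fall is imprecise. Exons of Notch3 with more than 10 reads numbered 1 of 33 in each 393P_vector sample and 0 in each 393P_ZEB1 sample. Notch3 passed the filter on low counts through its 393P_vector samples. The log2 fold change of Notch3 was -3.45 (standard error 0.34, adjusted p = 0.000181 from edgeR). Notch4, from 34564295 to 34588543, was at 6.87, 8.48 and 4.49 CPM in 393P_vector samples and 1.36, 1.26 and 0.770 CPM in 393P_ZEB1 samples. Its exons with more than 10 reads numbered 12, 14 and 10 of 30 in 393P_vector samples and 2 in each 393P_ZEB1 sample. For both genes the groups were fully separated. The log2 fold change of Notch4 was -2.55 (standard error 0.31, adjusted p = 0.000557 from edgeR), or 5.85-fold lower by the means. Genes of chromosome 17 as a whole were lower in 393P_ZEB1 cells, with a median log2 fold change of -0.43 over 675 tested genes. Relative to that median the changes were -3.02 for Notch3 and -2.12 for Notch4.

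Markers of the cells in which these receptors are usually found were low, and their summed levels were lower in 393P_ZEB1 samples. The summed level of 5 endothelial markers was 2.31 to 2.69 CPM in 393P_vector samples and 0.684 to 0.950 CPM in 393P_ZEB1 samples. In 393P_vector samples 4 of the 5 were below 1 CPM, the exception being Kdr, and none was at 0 in every sample. Only 2 of the 5, Kdr and Pecam1, passed the filter on low counts, and Kdr was called lower. The Kdr mean went from 1.91 to 0.33 CPM. Pecam1 and Tie1 also had lower means in 393P_ZEB1 samples, whereas Tek (0.0585 to 0.149 CPM) and Cdh5 (0.0755 to 0.144 CPM) had higher ones. The summed level of 4 mural markers was 2.26 to 2.67 CPM in 393P_vector samples and 0.576 to 0.737 CPM in 393P_ZEB1 samples. Of the 4, 3 were tested, 2 (Cspg4 and Cnn1) were called lower, and none was at 0 in every sample. Cnn1 was at 0.131, 0.036 and 0.0491 CPM in 393P_ZEB1 samples. Both Cnn1 and Pecam1 passed the filter through their 393P_vector samples, so for them the filter favored a fall over a rise. The part of such cells in the fall of Notch3 and Notch4 was not tested. In bulk RNA, fewer cells of a type and less RNA per cell cannot be told apart.

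Notch2, on chromosome 3 from 98013538 to 98150367, was the most abundant receptor in both conditions. It was at 334, 309 and 238 CPM in 393P_vector samples and 236, 231 and 261 CPM in 393P_ZEB1 samples. The groups overlapped through 393P_vector replicate 3, the lowest of its group. The log2 fold change was -0.27 (standard error 0.14, adjusted p = 0.171 from edgeR). Without 393P_vector replicate 3 it was -0.41 and passed (adjusted p = 0.00202 from edgeR), a decrease much smaller than those of the other receptors in the same fit, which ran from -5.30 for Notch1 to -2.77 for Notch4. That fit called 3700 of all genes tested higher and 3776 lower, against 2539 and 2679 with all samples.

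The make-up of the receptor pool was compared within each sample, on a scale of CPM per kilobase of counted exon, which allows genes of different length to be compared. Notch2 made up 83.3%, 82.0% and 82.6% of the summed level of the 4 receptors in 393P_vector samples and 98.5%, 98.4% and 99.0% in 393P_ZEB1 samples. The share of Notch1 went from 13.9% ± 0.489 (SD, n = 3) to 0.549% ± 0.121 (SD, n = 3). Notch4 went from 2.93% ± 0.577 (SD, n = 3) to 0.742% ± 0.242 (SD, n = 3), and Notch3 was below 1% in every sample. Each share separated the groups completely (exact two-sided permutation p = 0.1 for each of the 4, the smallest possible). Shares within a sample must sum to the whole, so they are not independent of each other. The summed receptor level was 38.3, 36.0 and 27.5 CPM per kilobase in 393P_vector samples and 22.9, 22.4 and 25.2 in 393P_ZEB1 samples. The lowest 393P_vector sample, replicate 3, was close to the highest 393P_ZEB1 sample.

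**Figure D2:**
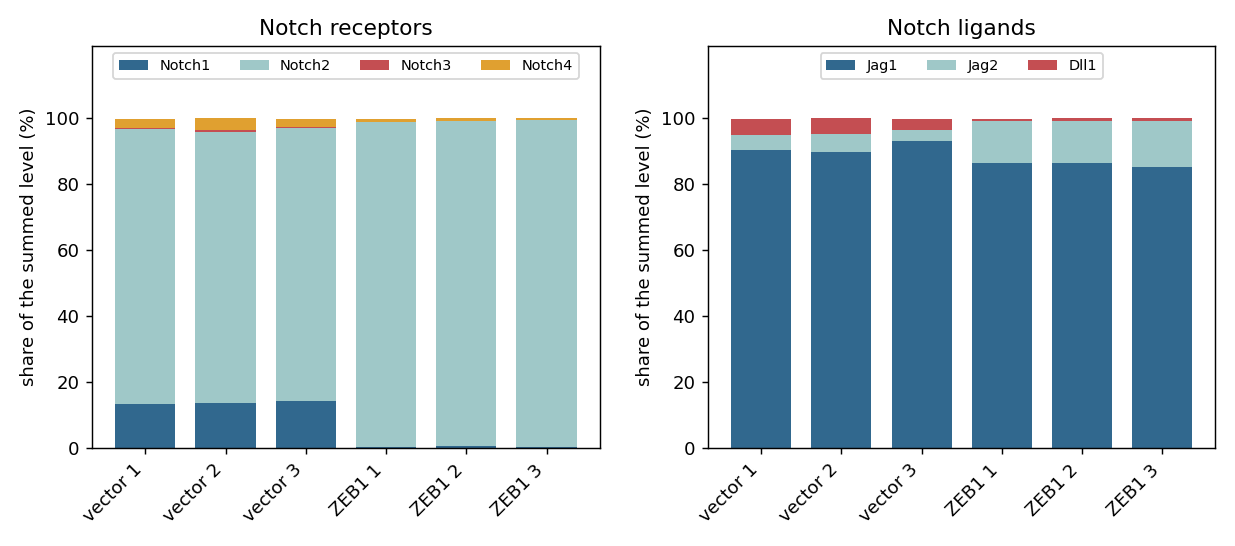
Share of each gene in the summed level of its family, in percent of CPM per kilobase of exon, in each of the 6 samples (left, 4 receptors; right, 3 ligands). Notch2 fills at least 98.4% of the receptor bar in every 393P_ZEB1 sample, and the Jag2 share of the ligand bar is 12.6% to 14.1% there against 3.32% to 5.54% in 393P_vector samples.

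Of the 3 ligands, Jag1 and Jag2 rose and Dll1 fell. Dll4 and Dlk2, described below, also fell. Jag1, on chromosome 2 from 137081451 to 137116520, encodes a Serrate-type transmembrane ligand. It was at 340, 323 and 335 CPM in 393P_vector samples and 805, 789 and 831 CPM in 393P_ZEB1 samples. The samples of each condition agreed closely and the groups were well separated. The mean rose from 333 ± 8.48 to 808 ± 21.5 CPM (SD, n = 3 each), which edgeR estimated as 1.28 on the log2 scale (standard error 0.10, adjusted p = 3.36e-05). With any 1 sample left out the change stayed between 1.26 and 1.30.

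Jag2, on chromosome 12 from 112908590 to 112929495, encodes the related Serrate-type ligand and had the larger fold change of the 2. It was at 12.4, 14.7 and 8.79 CPM in 393P_vector samples and 86.4, 85.6 and 101 CPM in 393P_ZEB1 samples, with no overlap. The 393P_ZEB1 mean, 91.0 ± 8.75 CPM (SD, n = 3), was 7.60-fold higher than the 393P_vector mean of 12 ± 2.98 CPM (SD, n = 3). The estimated log2 change was 2.93 (standard error 0.20, adjusted p = 2.54e-05 from edgeR). The median change of the 482 tested genes on chromosome 12 was -0.13.

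Dll1, on chromosome 17 from 15367354 to 15375823, encodes a Delta-type ligand. It was at 11.6, 10.6 and 7.76 CPM in 393P_vector samples and 4.54, 5.31 and 4.82 CPM in 393P_ZEB1 samples. All 393P_ZEB1 samples were the lower ones. On the log2 scale Dll1 changed by -1.03 (standard error 0.19, adjusted p = 0.00375 from edgeR). Relative to the chromosome 17 median given above for Notch3, the change of Dll1 was -0.60.

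The summed level of the 3 ligands, per kilobase of exon, was 68.7, 65.9 and 65.8 CPM in 393P_vector samples and 170, 167 and 179 CPM in 393P_ZEB1 samples. Jag1 remained the main ligand, at 91.2% ± 1.82 (SD, n = 3) of the sum in 393P_vector cells and 86.0% ± 0.777 (SD, n = 3) in 393P_ZEB1 cells. The share of Jag2 went from 4.45% ± 1.11 to 13.1% ± 0.807 and that of Dll1 from 4.37% ± 0.803 to 0.834% ± 0.0838 (SD, n = 3 each). Each of the 3 shares separated the groups (exact two-sided permutation p = 0.1, the smallest possible). The ratio of the summed ligand to the summed receptor level was 1.79, 1.83 and 2.39 in 393P_vector samples and 7.43, 7.45 and 7.09 in 393P_ZEB1 samples. These are ratios of transcript levels and say nothing of the proteins on the cell surface.

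**Figure D3:**
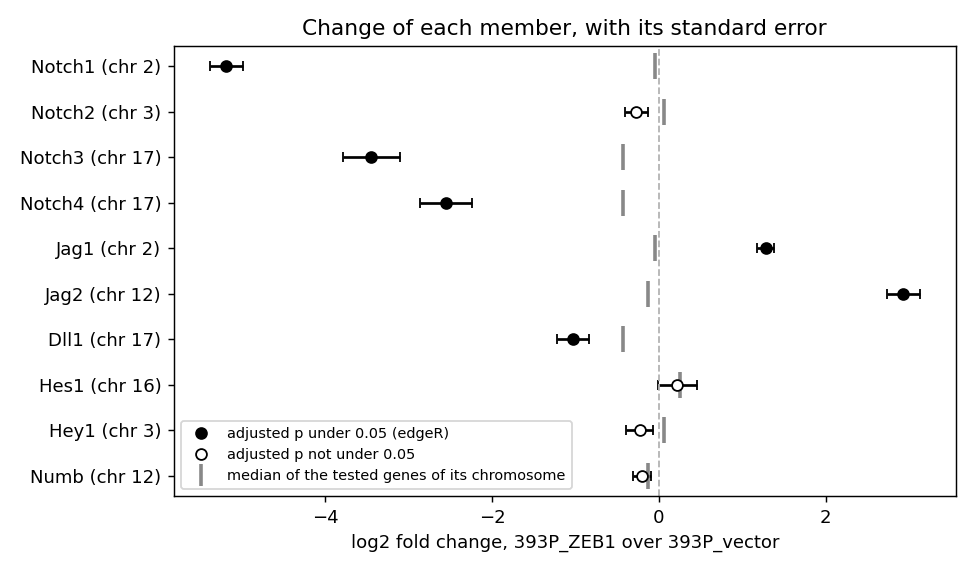
Log2 fold change of each Notch pathway gene in 393P_ZEB1 over 393P_vector cells with its standard error from edgeR, filled where the adjusted p was below 0.05, and a gray tick at the median of all tested genes on the same chromosome. The changes run from -5.19 for Notch1 to 2.93 for Jag2, and Hes1 (0.22) lies beside the chromosome 16 median of 0.25.

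Hes1, on chromosome 16 from 30065357 to 30067796, encodes the basic helix-loop-helix repressor that is the classic direct target of activated Notch. It was at 26.4, 24.9 and 44.8 CPM in 393P_vector samples and 33.8, 40 and 37.8 CPM in 393P_ZEB1 samples. 393P_vector replicate 3 was the highest of all 6 samples and the other 393P_vector samples were the lowest. The estimated log2 change of Hes1 was 0.22 (standard error 0.23, adjusted p = 0.494 from edgeR). Without 393P_vector replicate 3 it was 0.54 and passed (adjusted p = 0.00126 from edgeR), and with any other sample left out it did not pass. Over all genes tested, the fit without 393P_vector replicate 3 called 3700 higher and 3776 lower, against 2539 and 2679 with all samples. The 432 tested genes of chromosome 16 had a median change of 0.25, and relative to that median the change of Hes1 was -0.03 with all samples.

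Hey1, on chromosome 3 from 8663359 to 8667038, encodes a related repressor. It was at 4.51, 4.81 and 5.68 CPM in 393P_vector samples and 4.21, 4.14 and 4.49 CPM in 393P_ZEB1 samples. The 393P_ZEB1 samples were the lower ones, by a small margin. The log2 fold change of Hey1, -0.23 with a standard error of 0.16, did not pass (adjusted p = 0.293 from edgeR), nor did it in any of the 14 alternative settings.

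Numb, on chromosome 12 from 83795439 to 83842343, encodes an endocytic adaptor that promotes removal of Notch receptors. It was at 27.5, 26.9 and 25.0 CPM in 393P_vector samples and 21.1, 24.2 and 24.0 CPM in 393P_ZEB1 samples. The groups did not overlap, but the closest samples were less than 1 CPM apart. The estimated log2 change of Numb was -0.20 (standard error 0.11, adjusted p = 0.219 from edgeR). The median change on chromosome 12 was -0.13.

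Per kilobase of exon, the order of levels in 393P_vector cells was Jag1, Notch2, Hes1, Numb, Notch1, Jag2, Dll1, Hey1, Notch4 and Notch3, from a mean of 60.9 down to 0.189 CPM per kilobase. Samples of neighbors overlapped for Notch2 and Hes1, for Jag2 and Dll1 and for Dll1 and Hey1. In 393P_ZEB1 cells the order was Jag1, Hes1, Notch2, Jag2, Numb, Hey1, Dll1, Notch4, Notch1 and Notch3, from 148 down to 0.0169 CPM per kilobase. There Hes1, Notch2 and Jag2, at means of 25.7, 23.2 and 22.6, could not be ordered beyond their spread, and neither could Notch4 and Notch1.

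**Figure D4:**
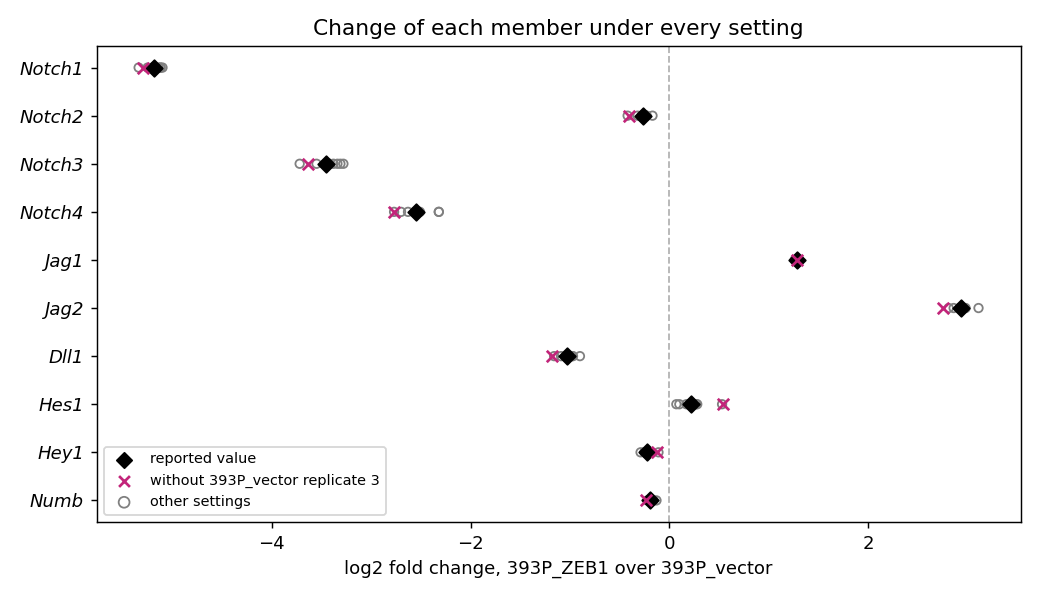
Log2 fold change of each Notch pathway gene as reported (diamond), without 393P_vector replicate 3 (cross) and under the other settings tried (open circles). Every gene kept its sign in the settings shown, and without that replicate Hes1 went from 0.22 to 0.54 and Notch2 from -0.27 to -0.41.

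The other genes of the pathway were read from a list of 49 arranged by role, of which 41 passed the filter on low counts. Of these, 7 were called higher, 10 lower and 24 not, a share of 41.5% against 37.6% of all genes tested, and their median log2 fold change was -0.12 against -0.02 for all genes tested. Those called, at least 2-fold changed and with separated groups were Dll4, Dlk2, Neurl1a, Dtx4 and Hey2, and all 5 were lower in 393P_ZEB1 cells. The share of all genes tested that met this stricter rule was not counted, so no direction of the pathway is read from these 5. Hey2 passed the filter through its 393P_vector samples only. The other pathway genes named below with values were singled out within their role after the values were seen.

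Both of the other ligands that could be tested fell. Dll4, a Delta-type ligand best known from endothelium, was at 0.512, 0.935 and 0.734 CPM in 393P_vector samples and 0.430, 0.378 and 0.246 CPM in 393P_ZEB1 samples (log2 fold change -1.05, standard error 0.33, adjusted p = 0.0395 from edgeR). Dlk2, a Delta-like protein that lacks the receptor-activating DSL domain, was at 11.7, 13.6 and 6.90 CPM in 393P_vector samples and 3.63, 4.01 and 4.46 CPM in 393P_ZEB1 samples. Its log2 fold change was -1.41 (standard error 0.26, adjusted p = 0.00401 from edgeR). Dlk2 lies on chromosome 17, and relative to that chromosome's median its change was -0.98. Dll3 and Dlk1 reached at most 0.224 CPM in any sample and were not tested.

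Of the 10 genes for proteolytic activation, 2 rose and 2 fell. Adam10, the protease that makes the first ligand-dependent cut, and Ncstn, the nicastrin subunit of gamma-secretase, rose with log2 fold changes of 0.60 and 0.41. Furin, which cleaves the receptor precursor in the Golgi, fell by 0.62 on the log2 scale. Aph1b, another gamma-secretase subunit, fell by 0.57 on the log2 scale (adjusted p = 0.0421 from edgeR), and its near-identical paralog Aph1c could share its reads, so this value is uncertain. None of the 4 tested glycosyltransferases that modify the receptor's extracellular domain was called, and Mfng was too low to test.

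Among 12 ubiquitin ligases and endocytic regulators, 2 were called higher and 4 lower. Dtx4, a Deltex-family ubiquitin ligase, had the smallest adjusted p of the list. It was at 70.0, 70.1 and 63.9 CPM in 393P_vector samples and 22.8, 24.9 and 23.1 CPM in 393P_ZEB1 samples (log2 fold change -1.53, standard error 0.11, adjusted p = 2.35e-05 from edgeR). Neurl1a, a Neuralized ligase that acts on ligands, was at 3.23, 3.30 and 3.37 CPM in 393P_vector samples and 1.08, 1.28 and 1.18 CPM in 393P_ZEB1 samples. Its log2 fold change was -1.48 (standard error 0.17, adjusted p = 0.000362 from edgeR). Neurl1b and Dtx3 fell by 0.83 and 0.70 on the log2 scale. They lie on chromosomes 17 and 10, with medians of -0.43 and -0.30. Relative to those medians each changed by -0.40. Mib1, the main ligase for ligand endocytosis, and Dtx3l rose by 0.60 and 0.88 on the log2 scale. Mib1 lies on chromosome 18, whose 396 tested genes had a median change of 0.64, so its change relative to that median was -0.04.

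In the nuclear complex 3 of 11 tested genes rose and 1 fell. Rbpj, the DNA-binding partner of the Notch intracellular domain, was at 69.0, 53.5 and 54.0 CPM in 393P_vector samples and 141, 116 and 94.9 CPM in 393P_ZEB1 samples. The groups were separated, with the 393P_ZEB1 samples spread over a wider range. Its log2 fold change was 0.99 (standard error 0.17, adjusted p = 0.00325 from edgeR). Maml3, a Mastermind-like coactivator, rose by 0.63 on the log2 scale. Ep300, a histone acetyltransferase that the complex recruits, fell by 0.57 on the log2 scale, on chromosome 15 with a median of -0.33.

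Of 6 further canonical targets, Hey2 and Nrarp could be tested. Hey2, a repressor of the same family as Hey1, was at 0.565, 0.340 and 0.650 CPM in 393P_vector samples and 0.150, 0.162 and 0.0655 CPM in 393P_ZEB1 samples. Its groups did not overlap at these low levels. Hey2 changed by -2.06 on the log2 scale (standard error 0.42, adjusted p = 0.00711 from edgeR). Nrarp, a feedback inhibitor induced by Notch, was at 57.4, 56.6 and 54.5 CPM in 393P_vector samples and 53.5, 48.1 and 46.5 CPM in 393P_ZEB1 samples (log2 fold change -0.19, standard error 0.10, adjusted p = 0.198 from edgeR). Hes5, Hes7, Heyl and Dtx1 reached at most 0.204 CPM in any sample. Of the targets that could be tested, Hes1, Hey1, Hey2 and Nrarp, only Hey2, the least abundant, was called. Hey2 passed the filter on low counts through its 393P_vector samples only, so the filter favored a fall over a rise for it.

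**Figure D5:**
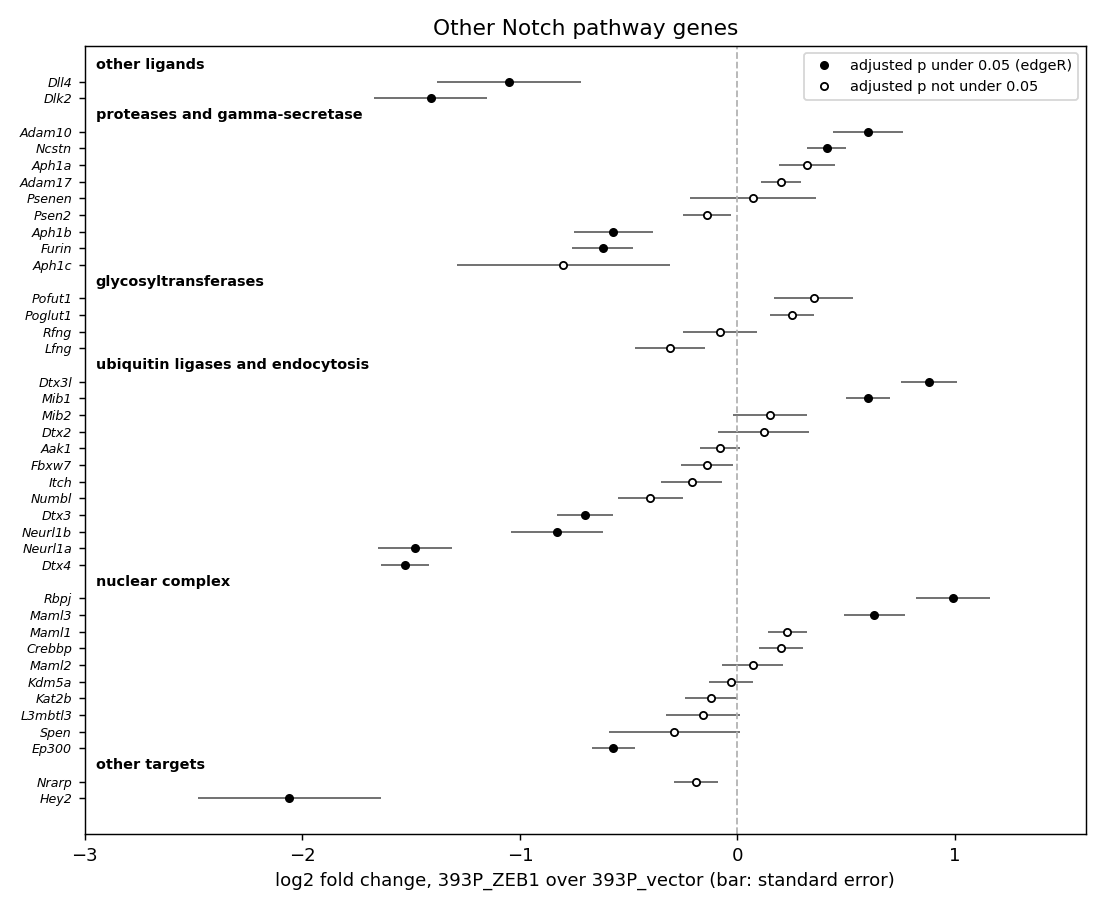
Log2 fold change with standard error (edgeR) of 39 of the 41 other Notch pathway genes that passed the filter, grouped by role, filled where the adjusted p was below 0.05. The lowest value is that of Hey2 (-2.06) and the highest that of Rbpj (0.99).

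Genes of the airway fates that Notch signaling biases were mostly not expressed. Of 11 such genes in the tables, 9 did not pass the filter on low counts, among them the secretory markers Scgb1a1 and Scgb3a2 and the neuroendocrine markers Calca and Chga. Foxj1, the master regulator of ciliated cells, and Foxa3, a goblet cell factor, were tested and both fell. Both passed the filter through their 393P_vector samples, so among these genes the filter favored a fall over a rise. Foxj1 was at 2.65, 2.75 and 2.97 CPM in 393P_vector samples and 0.206, 0.0900 and 0.262 CPM in 393P_ZEB1 samples (log2 fold change -3.89, standard error 0.33, adjusted p = 7.35e-05 from edgeR). Foxa3 was at 2.53, 2.18 and 2.37 CPM in 393P_vector samples and 0.224, 0.162 and 0.197 CPM in 393P_ZEB1 samples (log2 fold change -3.59, standard error 0.23, adjusted p = 1.66e-05 from edgeR).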

How the data were processed

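RNA sequencing libraries were made by the submitters from total RNA of 3 393P_vector and 3 393P_ZEB1 samples with a SOLiD kit. Per the file headers, the authors deposited for each sample the raw count of reads on each RefSeq feature, its exon length, an RPKM, and the number of exons with more than 10 reads. The deposited RPKM was not used, and the deposited exon numbers (other unit) were read for Notch genes only. The aligner, counting program and genome build are not given in the sources used here. Start coordinates matched GRCm38.p6 RefSeq for 6 of the 10 genes, and 99.5% of 20808 matched symbols lay on the same chromosome.

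Samples were grouped by title. Counts were analysed with edgeR 4.0.16 in R 4.3.3 (filterByExpr with a minimum count of 10, TMM, robust quasi-likelihood fit, group as the only term), which tested 13892 genes. Total counts ran from 54442450 to 79158012, and standard errors include the spread between samples. No other counted feature overlapped any of the 10 genes. Two-sided exact permutation tests used SciPy 1.17.1. The fit was also run on simulated counts. Those had fewer changed genes and less spread between samples than these data, so they cannot show how the fit performs here. The paper states no test for these counts.

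Alternatives were DESeq2 size factors, the DESeq2 1.42.0 Wald test, limma 3.58.1 voom with sample weights, no count filter, at least 10 counts in every sample, a replicate block, leaving out the 10 most counted genes or each sample in turn, and testing against a 1.5-fold threshold. The labels number replicates alike in both groups without saying that numbers mark a shared batch. The genes, lists and tests were chosen with earlier results of these data known. The rule for naming other pathway genes was a call, at least a 2-fold change and no overlap. Further pathway genes and the airway genes were named by role after their values were seen. Mcidas, listed with the airway genes, has no value here. Some genes of the lists are counted but not reported here by name.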

Additional observations from a re-analysis of the deposited data

How the results depend on the processing

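The 6 calls among the 10 Notch pathway genes (Notch1, Notch3, Notch4, Jag1, Jag2 and Dll1) were kept in every setting in which the gene was tested, Notch3 being removed by the filter of 10 counts in every sample. No sign was reversed. limma voom with sample weights, which gave 393P_vector replicate 3 a weight of 0.111, also called Notch2 (-0.42, adjusted p = 0.000754), Hes1 (0.53, adjusted p = 0.000628) and Numb (-0.21, adjusted p = 0.0476). It called 3977 genes higher and 4094 lower, and 11 and 17 of the other pathway genes. The test against a fold change of 1.5 called 1081 higher and 1118 lower, and 2 and 4 of the other pathway genes. Without scaling to exon length, the share differences were -12.4 (Notch1), 14.2 (Notch2), -0.374 (Notch3), -1.42 (Notch4), 6.68 (Jag2) and -2.27 (Dll1) percentage points, against -13.3, 16.0, -0.481, -2.19, 8.68 and -3.54 as reported. Counting 8mers only left 0 of the 10 genes and 3 of the other pathway genes with a miR-200 site, against 4 and 15.

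When single samples were left out, all genes called numbered 1861 to 3700 higher and 1784 to 3776 lower, the count of lower genes being smallest without 393P_ZEB1 replicate 3. Both counts were largest without 393P_vector replicate 3. In that fit 9 of the other pathway genes were called higher and 14 lower, against 7 and 10 with all samples. Over all fits without 1 sample these counts ran from 5 to 9 higher and from 7 to 14 lower. Without 393P_ZEB1 replicate 2 they were 5 and 7, so some calls in this list depend on single samples. The Notch2 change ranged from -0.41 to -0.17 and that of Hes1 from 0.07 to 0.54, and both passed the threshold when 393P_vector replicate 3 was left out but not when any other sample was. The cause was not tested.

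Deviations from the group mean correlated between same-numbered samples with r from -0.126 to 0.195 (3 pairs). Between differently numbered samples r ran from -0.120 to 0.157 (6 pairs). The numbers were not taken to pair the samples, although so few pairs cannot show whether they mark a shared batch. With the replicate number as a block, 2180 genes were higher and 2256 lower, the log2 fold change was -5.19 for Notch1 and 1.28 for Jag1, and the same 6 Notch pathway genes were called.

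Depth limits the fold change of Notch3, which stood on 6 to 11 counts per sample in 393P_ZEB1 cells.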
